A study of Mus musculus with 26 samples.

Results

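Early 2-cell (E2C) mouse embryos that lacked maternal KDM3A and KDM3B and had been injected with mCherry were set against control E2C embryos injected with mCherry. These were 4 of the series' 26 libraries, 2 per group, and 10960 of the 24412 listed genes entered the comparison because they had at least 1 TPM, the authors' unit of transcript abundance, in at least 2 of the 8 injected E2C libraries. All embryos were C57BL/6J. The mDKO mCherry embryos came from oocytes of females with the genotype Zp3-Cre; Kdm3a f/f; Kdm3b f/f, in which the Zp3 promoter drives Cre in growing oocytes, fertilised in vitro by wild-type sperm. Their paternal Kdm3a and Kdm3b alleles are therefore intact. The control mCherry embryos carry the genotype label "control", and the labels do not name their alleles or Cre status. The other injected E2C groups, mDKO Kdm3aWT and mDKO Kdm3aHA, entered the fit as further groups. Uninjected mDKO and uninjected control E2C embryos, and mDKO and control oocytes at metaphase II (MII), served as comparisons. Every embryo library pooled 12 to 20 embryos. mCherry is a red fluorescent protein, injected here beside groups that received Kdm3a.

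KDM3A and KDM3B remove mono- and dimethylation from lysine 9 of histone H3 (H3K9), a mark of silent chromatin that is laid down by the methyltransferases EHMT2 and EHMT1. Mouse embryos start transcription in a minor wave around the late 1-cell and early 2-cell stage, when short-lived transcripts such as the Zscan4 and Usp17l families, Zfp352 and Tcstv genes appear, before the major wave of the late 2-cell stage. RNA stored in the oocyte is cleared over the same period, so an E2C library mixes maternal RNA with the first embryonic RNA. The comparison asks how the loss of the maternal demethylases changes that mixture in embryos that have also been through an injection.

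The targeted genes were low in the mDKO libraries. Kdm3a (chr6:71588970-71632990, mm10) stood at 0.262 and 0.411 TPM in mDKO mCherry embryos and at 2.12 and 1.81 TPM in control mCherry embryos. Kdm3b stood at 0.254 and 0.128 TPM in mDKO mCherry against 0.710 and 0.722 TPM in control mCherry, too low to enter the test. For both genes the groups did not overlap, and Kdm3a was lower by the test (log2 fold change -1.15 ± 0.23, SE; limma adjusted p = 0.00354). Jmjd1c, a paralogue with the same catalytic domain, was measured at 3.01 and 2.88 TPM in mDKO mCherry against 2.54 and 2.26 TPM in control mCherry, a log2 difference of 0.22 ± 0.16 that did not pass (adjusted p = 0.303). Errors after ± are standard errors on the log2(TPM + 1) scale throughout, with n = 2 libraries in each group.

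The 4 mCherry libraries each held 9955 to 10284 genes at 1 TPM or more. Log2(TPM + 1) values correlated across the tested genes at r = 0.993 between the mDKO mCherry replicates and at 0.988 between the control mCherry replicates, and at 0.917 to 0.928 between the groups. The control mCherry libraries reached 0.944 to 0.952 with uninjected control libraries, and the mDKO mCherry libraries reached 0.946 to 0.966 with uninjected mDKO libraries and 0.971 to 0.975 with mDKO Kdm3aWT libraries. All 4 libraries carried oocyte transcripts at high level, such as Oosp1 with 7182 and 7101 TPM in mDKO mCherry and 4785 and 4972 TPM in control mCherry. Some of the results below turn on transcripts of other cell types in the mDKO mCherry libraries and on a set of transcripts that is low in both control mCherry libraries, and both are described where they arise.

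Of the 10960 genes, 2946 were higher in mDKO mCherry than in control mCherry embryos (26.9% of those tested) and 2195 were lower (20.0%) at a limma adjusted p under 0.05. Differences of at least 2-fold were found for 1531 higher genes (14.0%) and 602 lower genes (5.49%). Leaving out 1 library lowered the calls to between 3117 and 4026, the 2 lowest counts being 3117 without mDKO mCherry replicate 1 and 3264 without mDKO mCherry replicate 2. Of the 10637 to 10708 genes tested then, 1874 to 2496 were higher and 1243 to 1530 lower. List counts given below with 1 library left out stand beside these totals, not beside 26.9% and 20.0%. Among the 602 lower genes, 263 (43.7%) averaged under 1 TPM in control MII oocytes, against 168 (10.97%) of the 1531 higher genes and 1781 (16.3%) of all tested genes. The filter on low values bears on these counts, since 217 of the 1531 higher genes passed it only through the mDKO mCherry libraries and 122 of the 602 lower genes only through the control mCherry libraries, and these had no other direction to take. In pooled embryos fewer cells with a transcript and less of it per cell cannot be told apart.

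Transcripts that first appear in the early 2-cell embryo were lower. Of 45 tested early 2-cell genes, 42 were lower in mDKO mCherry embryos, 37 of them by at least 2-fold, and none were higher, with a median log2 fold change of -2.06 against 0.04 over all tested genes. The members Tdpoz1, Tdpoz4 and Usp26 passed the filter only through control mCherry. Summed over all 48 early 2-cell genes listed, the level was 1742 and 1805 TPM in mDKO mCherry and 5258 and 6067 TPM in control mCherry. The 5 tested Zscan4 genes, whose proteins carry a SCAN domain and zinc fingers and act at telomeres and in chromatin of 2-cell embryos, all fell. Zscan4f stood at 49.4 and 57.4 TPM in mDKO mCherry against 411 and 515 TPM in control mCherry (log2 fold change -3.09 ± 0.19, adjusted p = 1.08e-05). Zscan4a stood at 10.7 and 13.8 TPM in mDKO mCherry against 169.5 and 166.9 TPM in control mCherry (-3.69 ± 0.19, adjusted p = 5.69e-06). Neither gene's groups overlapped, and the same held in uninjected embryos, where Zscan4f was at 46.0 and 70.1 TPM in mDKO and at 521 and 778 TPM in control.

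The Usp17l genes encode ubiquitin-specific proteases of a family that is repeated in tandem. All 5 tested members fell. Usp17lb stood at 17.6 and 16.3 TPM in mDKO mCherry against 94.2 and 90.3 TPM in control mCherry (-2.38, adjusted p = 1.08e-05), and Usp17le at 1.46 and 2.67 TPM against 21.2 and 17.2 TPM (-2.74, adjusted p = 9.55e-05). Zfp352, a zinc-finger gene derived from a retroposed copy and read from a repeat-rich promoter, stood at 25.5 and 22.6 TPM in mDKO mCherry against 85.1 and 93.6 TPM in control mCherry (-1.85, adjusted p = 1.08e-05). Of the Tcstv genes, Tcstv1 stood at 168 and 181 TPM in mDKO mCherry against 394 and 402 TPM in control mCherry, and Tcstv3 at 48.0 and 62.0 TPM against 139.4 and 138.9 TPM. The lowest member of the whole list was Gm21319 (chr12:87772425-87775755), with 2.15 and 3.16 TPM in mDKO mCherry against 47.1 and 50.1 TPM in control mCherry (-3.78 ± 0.31, adjusted p = 3.85e-05). Copies in these families are nearly identical, so the division of reads among them is uncertain while their sum is less so.

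The 3 tested members that did not pass were Gm6763, at 38.5 and 45.2 TPM in mDKO mCherry against 55.8 and 101.8 TPM in control mCherry (adjusted p = 0.217), Cml2, at 37.0 and 39.3 TPM against 28.3 and 31.7 TPM (adjusted p = 0.0874), and A430033K04Rik, at 333 and 332 TPM against 314 and 357 TPM (adjusted p = 0.944). The list therefore held genes that did not follow the Zscan4 pattern. Gm4340 was lower with mCherry, at 51.8 and 57.1 TPM in mDKO mCherry against 207 and 180 TPM in control mCherry, but is listed at 0 in all 4 uninjected libraries.

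**Figure D1:**
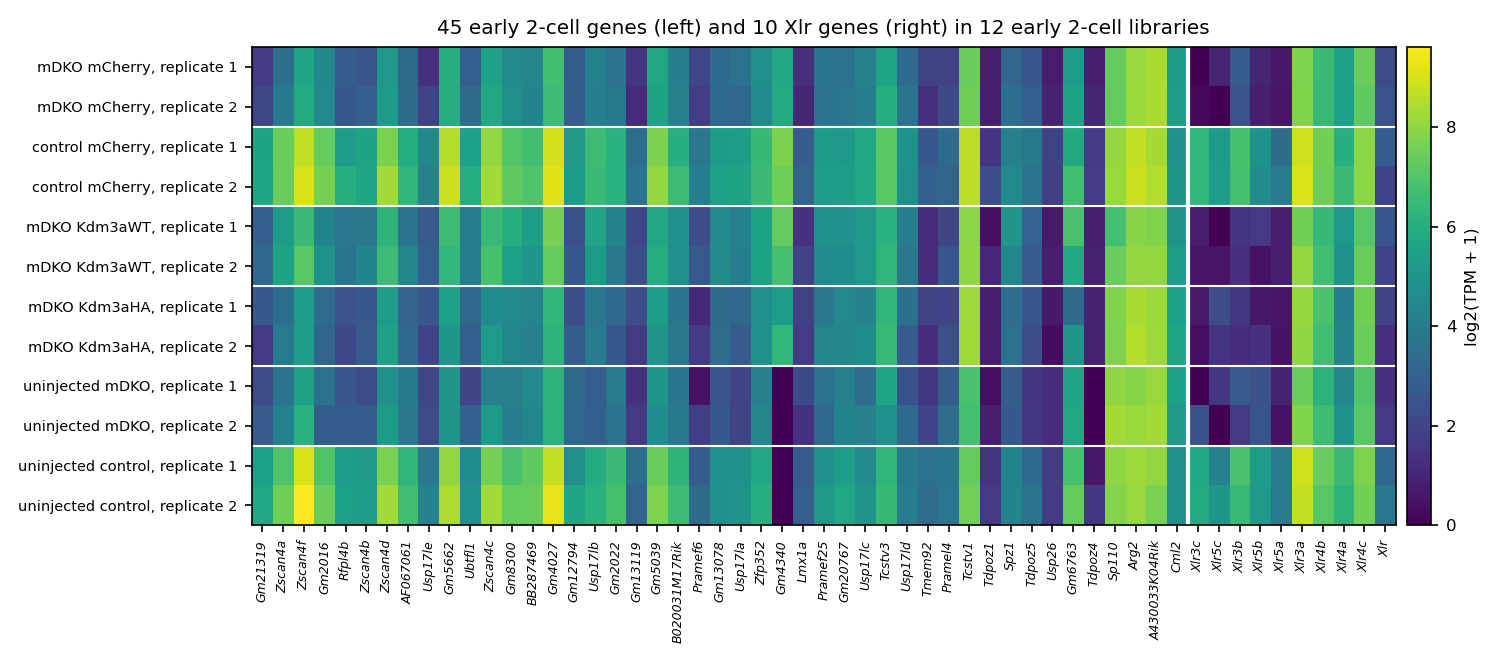
Each column is 1 tested early 2-cell gene (left, 45 genes) or Xlr gene (right, 10 genes), ordered within each block by the fold change with mCherry, and each row is 1 of the 12 E2C libraries; colour gives log2(TPM + 1). For genes such as Zscan4f, the rows of both control groups are brighter than those of the 8 mDKO libraries. Zscan4f stood at 49.4 and 57.4 TPM in mDKO mCherry against 411 and 515 TPM in control mCherry. Gm4340 is dark in the uninjected control rows too, and Cml2, A430033K04Rik and Xlr do not show this pattern with mCherry.

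Because the fall was seen in gene families with shared upstream sequence, promoters of a few of them are shown, from 250 bases before to 50 bases after the RefSeq start (GRCm38.p6, the assembly of mm10). Capitals mark matches, on either strand, to TATAAA (the core of a TATA box), CCAAT (the CCAAT box), GGATTA (the core bound by Otx-type and Obox homeodomains) and GGGCGG (a GC box). The first pair is from the Zscan4 cluster, Zscan4d at chr7:11166099-11166398 on the minus strand and Zscan4f at chr7:11397665-11397964 on the plus strand.
Zscan4d: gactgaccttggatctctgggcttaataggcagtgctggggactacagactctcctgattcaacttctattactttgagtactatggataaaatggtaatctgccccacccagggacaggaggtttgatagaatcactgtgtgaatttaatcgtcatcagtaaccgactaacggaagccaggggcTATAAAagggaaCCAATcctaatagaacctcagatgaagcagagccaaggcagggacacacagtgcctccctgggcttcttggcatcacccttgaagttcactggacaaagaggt
Zscan4f: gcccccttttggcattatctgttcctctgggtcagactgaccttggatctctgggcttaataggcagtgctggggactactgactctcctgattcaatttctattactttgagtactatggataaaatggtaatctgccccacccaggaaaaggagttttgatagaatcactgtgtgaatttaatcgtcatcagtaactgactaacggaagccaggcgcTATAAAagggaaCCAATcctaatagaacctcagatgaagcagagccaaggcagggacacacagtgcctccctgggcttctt
Both hold a TATAAA match followed by a CCAAT match, first bases at -65 and -53 from the annotated start in Zscan4d and at -31 and -19 in Zscan4f, and the windows share 77.5% of aligned positions.
Usp17lb, at chr7:104842534-104842833 on the minus strand, and Zfp352, at chr4:90218570-90218869 on the plus strand, follow.
Usp17lb: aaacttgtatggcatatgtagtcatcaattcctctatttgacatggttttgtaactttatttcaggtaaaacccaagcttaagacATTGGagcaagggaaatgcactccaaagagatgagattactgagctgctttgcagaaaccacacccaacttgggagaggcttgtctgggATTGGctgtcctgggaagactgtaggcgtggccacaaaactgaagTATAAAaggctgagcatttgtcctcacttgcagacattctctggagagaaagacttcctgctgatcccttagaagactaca
Zfp352: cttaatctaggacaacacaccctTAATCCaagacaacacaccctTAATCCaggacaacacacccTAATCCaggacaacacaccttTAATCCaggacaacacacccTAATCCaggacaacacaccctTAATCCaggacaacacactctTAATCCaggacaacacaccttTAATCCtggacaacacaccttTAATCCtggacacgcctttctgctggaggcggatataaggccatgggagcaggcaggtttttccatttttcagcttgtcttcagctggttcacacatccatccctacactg
Usp17lb has a TATAAA match at -31 and 2 CCAAT matches, both as ATTGG, and Zfp352 has 9 matches to GGATTA, all as TAATCC, in a short repeat.

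Over the genes with a promoter in the table, GGATTA or its complement TAATCC occurred in 57 of 438 lower genes (13.0%), in 45 of 1155 higher genes (3.90%), in 484 of 8380 tested genes (5.78%) and in 7.16% of all 27025 promoters, where lower and higher mean called by at least 2-fold. TATAAA or TTTATA occurred in 16.2% of lower, 8.92% of higher, 8.35% of tested and 14.2% of all promoters. CCAAT or ATTGG occurred in 45.4%, 38.1%, 40.2% and 37.9% in the same order, and GGGCGG or CCGCCC in 43.4%, 66.0%, 60.3% and 35.9%. Copies of a tandem family share promoter sequence and are not independent, and a match says only that the letters are present.

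The 2 lowest of the named genes, Xlr3c and Xlr5c, lie on the X chromosome and belong to the Xlr genes, a multicopy family related to the synaptonemal complex protein SYCP3. Of 10 tested members 9 were lower, with a median log2 fold change of -2.15, and none were higher. Xlr3c and Xlr5a passed the filter only through control mCherry. Xlr3c (chrX:73254538-73265576) was listed at 0 and 0.199 TPM in mDKO mCherry against 80.3 and 80.6 TPM in control mCherry, the lowest of all named genes (-6.22 ± 0.19, adjusted p = 1.17e-06). Xlr5c stood at 1.01 and 0 TPM in mDKO mCherry against 36.7 and 40.6 TPM in control mCherry, and Xlr3b at 6.17 and 4.46 TPM against 111 and 106 TPM. The larger members kept more of their level: Xlr3a stood at 215.0 and 220.7 TPM in mDKO mCherry against 484 and 533 TPM in control mCherry, and Xlr4c at 169 and 153 TPM against 246 and 241 TPM. Xlr itself, at 3.52 and 4.56 TPM in mDKO mCherry and 5.95 and 2.79 TPM in control mCherry, overlapped between the groups and did not pass (adjusted p = 0.945).

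Promoters of the near-copies Xlr3b (chrX:73191929-73192228, plus strand) and Xlr3c (chrX:73265341-73265640, minus strand) are shown with the same marks. Their log2 fold changes were -4.13 ± 0.19 and -6.22 ± 0.19 with mCherry, but -4.49 ± 0.34 and -4.63 ± 0.62 without injection. Whether the motifs bear on the size of the fall was not tested.
Xlr3b: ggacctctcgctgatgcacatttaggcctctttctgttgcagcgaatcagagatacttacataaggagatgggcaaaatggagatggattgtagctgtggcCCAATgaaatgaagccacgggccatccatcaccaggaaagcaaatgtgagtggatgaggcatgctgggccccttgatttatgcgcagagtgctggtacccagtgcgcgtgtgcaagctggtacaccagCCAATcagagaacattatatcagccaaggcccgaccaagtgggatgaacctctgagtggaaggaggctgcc
Xlr3c: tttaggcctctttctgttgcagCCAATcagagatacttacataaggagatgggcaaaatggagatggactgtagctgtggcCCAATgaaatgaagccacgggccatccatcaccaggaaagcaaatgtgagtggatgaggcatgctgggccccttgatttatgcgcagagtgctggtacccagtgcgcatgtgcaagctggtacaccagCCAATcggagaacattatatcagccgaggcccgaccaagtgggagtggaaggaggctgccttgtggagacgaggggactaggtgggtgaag
The windows share 83.8% of aligned positions. Xlr3b has 2 CCAAT matches and Xlr3c has 3, and neither holds a match to the other 3 motifs.

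Unlike the Zscan4 genes, several Xlr genes were already lower in oocytes. In mDKO against control MII oocytes, the log2 difference was -3.19 ± 0.23 for Xlr3b (adjusted p = 0.00617), for Xlr5b -3.53 ± 0.22 (adjusted p = 0.00515) and for Xlr5c -3.08 ± 0.23 (adjusted p = 0.00662). Of 220 genes lower by 2-fold in mDKO MII oocytes (2.04% of those tested there), 153 were tested with mCherry, and 109 of these were lower in mDKO mCherry embryos (71.2%, beside 20.0% of all genes) and 10 higher. Without control mCherry replicate 1 or replicate 2 the 109 became 68 or 69, and the lower calls over all genes went from 2195 to 1530 or 1323. The oocyte libraries share no sample with the mCherry groups. The 47 genes higher by 2-fold in mDKO MII oocytes (0.437%) held 21 that were higher and 8 that were lower with mCherry.

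The rest of the 12 lowest genes were single genes of varied function, and each was lower in both mDKO mCherry libraries than in either control mCherry library. Cd7, which encodes a lymphocyte surface protein, stood at 13.3 and 24.3 TPM in mDKO mCherry against 272 and 284 TPM in control mCherry (-3.87 ± 0.31, adjusted p = 3.84e-05). Gstp2, a glutathione transferase, stood at 0.712 and 3.37 TPM against 56.5 and 49.0 TPM. Cxcr3, a chemokine receptor gene on the X chromosome, stood at 0.293 and 0.548 TPM in mDKO mCherry against 16.1 and 19.5 TPM in control mCherry, and Susd3, which encodes a membrane protein with a sushi domain, at 1.62 and 1.10 TPM against 28.8 and 23.3 TPM. Gstp2, Cxcr3 and Susd3 were lower in mDKO MII oocytes too. On the log2 scale Gstp2 differed there by -2.08 ± 0.25 (limma adjusted p = 0.0185). Cxcr3 differed by -4.27 ± 0.22 (adjusted p = 0.00343) and Susd3 by -4.87 ± 0.29 (adjusted p = 0.00484). Cd7 did not pass in oocytes (adjusted p = 0.101). The list was completed by Esp24, which encodes a peptide of the exocrine-gland family, at 1.97 and 1.84 TPM in mDKO mCherry against 30.2 and 40.3 TPM in control mCherry, and by the sulfotransferase gene Sult5a1 at 0.434 and 0.271 TPM against 11.6 and 17.8 TPM. Sult5a1 passed the filter only through control mCherry, so its direction was set by it.

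**Figure D2:**
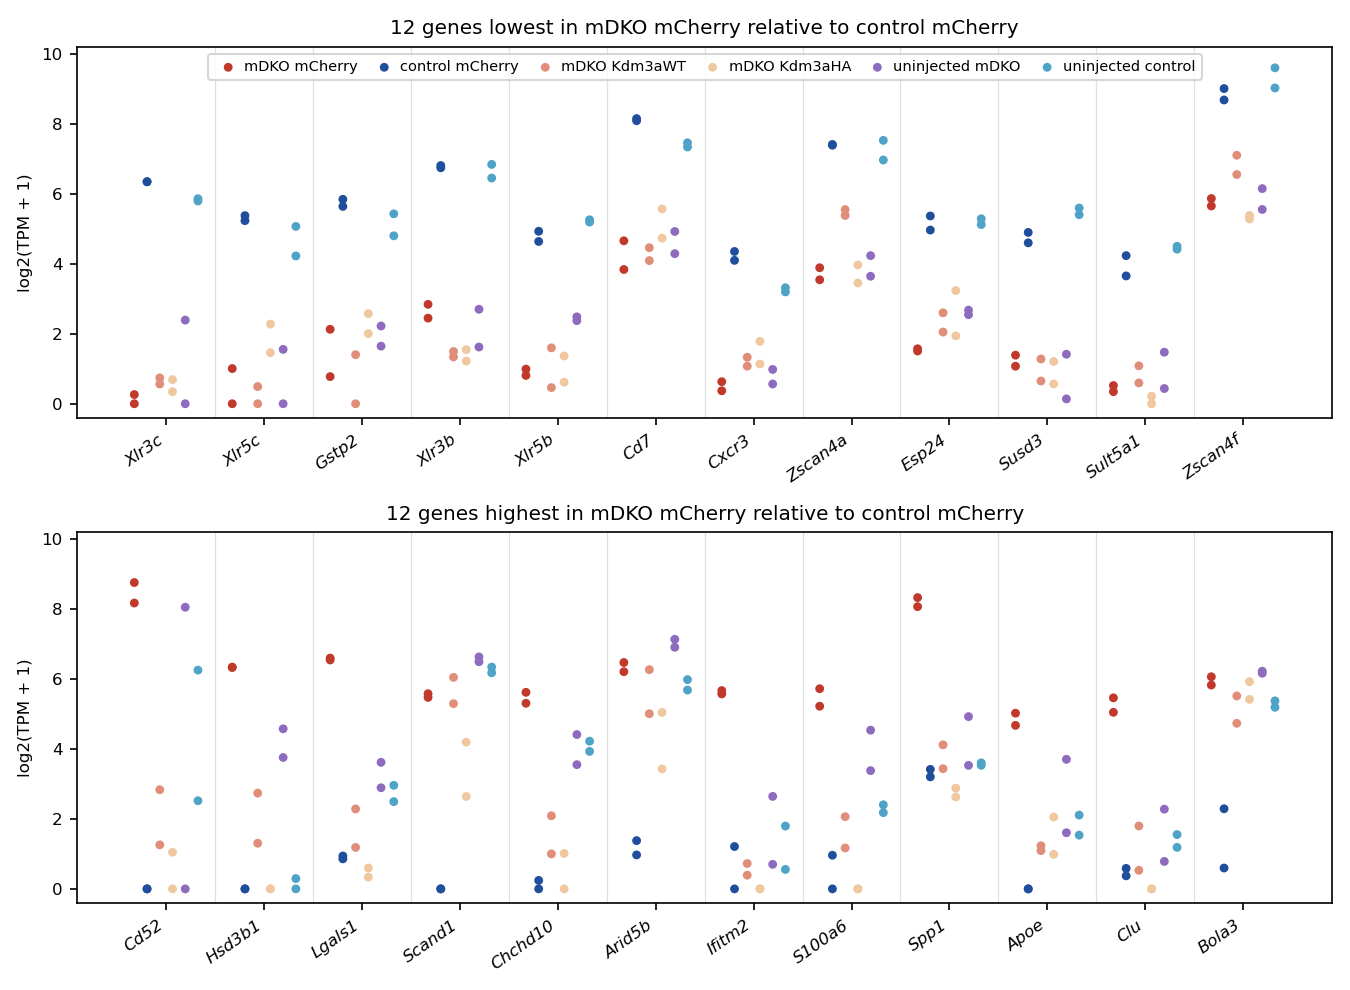
Points give log2(TPM + 1) in each of the 12 E2C libraries for the 12 lowest (top) and 12 highest (bottom) genes named by fold change, with mDKO mCherry leftmost and control mCherry beside it. In the top panel both control groups stand above all 8 mDKO libraries, and in the bottom panel the uninjected groups stand near control mCherry for Spp1 but near mDKO mCherry for Scand1.

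Of 20 tested regulators of genome activation, 5 were higher and 6 lower, beside 26.9% and 20.0% of all genes, so the counts stood near the background. The lower ones included Dppa2, Dppa4, Tfap2c, Tbp and Dux. Dppa2, which with its partner DPPA4 binds promoters of early 2-cell genes in mouse embryonic stem cells, stood at 66.1 and 65.3 TPM in mDKO mCherry against 164 and 172 TPM in control mCherry (-1.34 ± 0.15, adjusted p = 0.000190). Dppa4 stood at 4.85 and 3.48 TPM against 10.98 and 8.36 TPM (adjusted p = 0.00853). Dux, the homeobox activator of the same genes, stood at 13.9 and 15.2 TPM in mDKO mCherry against 20.0 and 20.8 TPM in control mCherry (-0.46, adjusted p = 0.0228), where uninjected embryos had 9.70 and 12.5 TPM in mDKO against 37.6 and 29.6 TPM in control. Nelfa, a subunit of the pausing factor NELF, was higher, at 59.6 and 66.5 TPM against 23.6 and 21.4 TPM (1.45 ± 0.14, adjusted p = 0.000101), and so was the heat shock factor Hsf1. Neither Nelfa nor Hsf1 was called in uninjected embryos (limma adjusted p = 0.0739 and 0.405). With mCherry, Prdm2 and Gabpa did not pass (adjusted p = 0.0969 and 0.255).

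The Obox genes, oocyte and 2-cell homeobox genes clustered on chromosome 7, split by level. The abundant members Obox1, Obox2 and Obox5, at 3557 TPM or more in each of the 4 libraries, were higher by log2 fold changes of 0.26, 0.41 and 0.25. Obox3 stood at 6.66 and 5.87 TPM in mDKO mCherry against 25.03 and 23.4 TPM in control mCherry (-1.80 ± 0.17, adjusted p = 8.47e-05), Obox4 at 599 and 605 TPM against 1302 and 1428 TPM (-1.18), and Obox6 at 3.77 and 2.16 TPM against 10.7 and 15.1 TPM (-1.82). Obox8 was lower and Obox7 did not pass, with 1405 and 1508 TPM in mDKO mCherry and 1417 and 1470 TPM in control mCherry. After centring for GC content, the family had 2 higher calls, against 3 before, and all tested genes had 2449, against 2946.

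Germline and meiotic genes had 16 of 35 tested members lower and 3 higher, beside 20.0% and 26.9% of all genes. Their median was -0.41, and many such genes are silenced by H3K9 or DNA methylation outside the germline. The lower count was 10 to 13 with 1 library left out, the lowest without mDKO mCherry replicate 2, and Tex101 passed the filter only through control mCherry. Sycp3, an axial element of the synaptonemal complex and the parent of the Xlr family, stood at 85.3 and 87.6 TPM in mDKO mCherry against 386 and 404 TPM in control mCherry (-2.18 ± 0.12, adjusted p = 8.46e-06). Tex19.1, which restrains retrotransposons, stood at 20.9 and 25.04 TPM against 109 and 102 TPM (-2.16 ± 0.13, adjusted p = 1.08e-05), and Tuba3b, a tubulin of the testis, at 1.72 and 2.56 TPM against 14.3 and 16.0 TPM (-2.37). Tex15, Fkbp6 and Smc1b were also lower by at least 2-fold. The higher members were Ddx4, at 383.5 and 399.8 TPM in mDKO mCherry against 195 and 212 TPM in control mCherry, Slc25a31 and Dmc1. Syce1 and Meiob did not pass (adjusted p = 0.0837 and 0.129).

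Maternal transcripts leaned the other way, beside 26.9% of all tested genes higher and 20.0% lower. Of 1820 tested genes whose level fell by at least 4-fold between control MII oocytes and uninjected control E2C embryos, 630 were higher in mDKO mCherry (34.6%) and 199 lower (10.9%), with a median of 0.24. The lower count was 74 to 118 when 1 library was left out. After centring for GC content the calls were 511 higher and 370 lower, beside 2449 higher and 2915 lower of all 10960 tested genes. The set that rose by the same measure from a mean under 1 TPM held 247 of 556 tested genes lower (44.4%) and 38 higher (6.84%), with a median of -0.58. Both sets were drawn from MII and uninjected control libraries, none of which enter the mCherry contrast. Oocyte libraries were made with a different kit from embryo libraries, which bears on the choice of both sets.

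Of 63 tested oocyte and maternal-effect genes, 23 were higher and 12 lower, beside 26.9% and 20.0% of all genes. The median was 0.05, which is -0.06 after centring for GC content, when that of all tested genes was -0.08. H1foo, the linker histone of the oocyte, stood at 1799 and 1687 TPM in mDKO mCherry against 409 and 468 TPM in control mCherry (1.99 ± 0.14, adjusted p = 1.96e-05), and the uninjected groups held nearly the same pair of levels, 1474 and 1456 TPM in mDKO and 389 and 435 TPM in control. Zar1, which is needed for the oocyte-to-embryo transition, stood at 216 and 222 TPM in mDKO mCherry against 28.2 and 27.3 TPM in control mCherry (2.94 ± 0.23, adjusted p = 3.29e-05). Khdc3, a member of the subcortical maternal complex, stood at 19.4 and 18.7 TPM against 0.995 and 1.60 TPM (3.14 ± 0.28, adjusted p = 6.23e-05). The zona pellucida gene Zp3, whose promoter drives the Cre, was higher at 78.9 and 73.5 TPM in mDKO mCherry against 40.1 and 37.4 TPM in control mCherry, and so were Gdf9, Mos, Tle6, Lhx8 and Astl. The lower members included Dppa3, at 17510 and 17997 TPM against 23740 and 23848 TPM, the Nlrp9 genes, Nlrp14 and Cd9, the egg protein required for sperm fusion, at 61.3 and 60.5 TPM in mDKO mCherry against 119 and 138 TPM in control mCherry. Oog1 ranged from 0.0949 to 5.93 TPM in mDKO mCherry and from 0.837 to 14.8 TPM in control mCherry and did not pass, and neither did Gpr3 (adjusted p = 0.0682).

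Of 24 factors that clear maternal mRNA 7 were higher and 6 lower, beside 26.9% and 20.0% of all genes. Without mDKO mCherry replicate 1 or replicate 2 they were 4 and 3, and without control mCherry replicate 2 the lower count was also 3. Cnot11, a subunit of the CCR4-NOT deadenylase, stood at 63.9 and 60.4 TPM in mDKO mCherry against 14.2 and 16.0 TPM in control mCherry (1.97 ± 0.27, adjusted p = 0.000579), whereas the catalytic subunit Cnot6l stood at 112 and 116 TPM against 289.4 and 289.1 TPM (-1.34 ± 0.16, adjusted p = 0.000271). Ythdf2, which binds methylated adenosine in RNA, was higher at 24.7 and 24.2 TPM against 11.5 and 9.32 TPM. Dis3l2 and Cnot10 did not pass.

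Among chromatin genes, the demethylase list had 1 of 8 tested members higher and 2 lower, beside 26.9% and 20.0% of all genes. Kdm1b, the H3K4 demethylase of growing oocytes, stood at 74.6 and 76.8 TPM in mDKO mCherry against 37.7 and 38.7 TPM in control mCherry (0.97 ± 0.19, adjusted p = 0.00323). The members called lower were Kdm3a and Phf8, an X-linked demethylase that lost its call when mDKO mCherry replicate 1 or replicate 2 or control mCherry replicate 2 was left out. The H3K9 methylation machinery had 5 of 24 higher and 5 lower, not far from the shares of all genes. Its higher members included the HP1 gene Cbx1, at 145 and 147 TPM in mDKO mCherry against 72.9 and 44.1 TPM in control mCherry, the corepressor gene Trim28, at 10.6 TPM in both mDKO mCherry libraries against 3.59 and 4.12 TPM, and the HUSH complex gene Mphosph8, at 315 and 309 TPM against 181 and 165 TPM. Cbx5, another HP1 gene, was lower at 7.84 and 8.43 TPM in mDKO mCherry against 20.5 and 20.4 TPM in control mCherry. The 5 lower calls shrank to 1 to 3 when a library was left out. Phf2, Setdb2 and Fam208a did not pass.

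SUMO, a small modifier with roles in heterochromatin, had 8 of 17 tested pathway members higher and 2 lower. Over all tested genes the shares were 26.9% and 20.0%. The median of the list was 0.42 and became 0.15 after centring for GC content, when that of all tested genes was -0.08. The higher count was 5 without mDKO mCherry replicate 2, and the lower count was 4 with size-factor scaling or with the 4 mCherry libraries alone. Sumo2 stood at 237 and 215 TPM in mDKO mCherry against 54.9 and 51.4 TPM in control mCherry (2.07 ± 0.13, adjusted p = 1.47e-05), and its uninjected values of 228 and 216 TPM in mDKO against 47.7 and 39.6 TPM in control were much the same. Sumo3 was higher at 192.8 and 193.0 TPM in mDKO mCherry against 96.5 and 76.2 TPM in control mCherry. Uninjected embryos held 155.9 and 135.3 TPM of Sumo3 in mDKO against 162.7 and 160.5 TPM in control, and it was not called there. The E3 ligase gene Pias4 stood at 14.8 and 17.1 TPM in mDKO mCherry against 5.04 and 4.098 TPM in control mCherry. Senp3 and Senp2 did not pass.

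The metallothionein genes Mt1 and Mt2, neighbours that bind zinc, moved in opposite directions. Mt1 stood at 273 and 278 TPM in mDKO mCherry against 86.6 and 82.7 TPM in control mCherry (1.69 ± 0.09, adjusted p = 6.76e-06), and Mt2 at 56.2 and 54.8 TPM against 84.96 and 103.3 TPM (-0.74, adjusted p = 0.00563). Among 13 tested genes of the list 6 were higher and 1 was lower, beside 26.9% and 20.0% of all genes. The other higher members were zinc transporters, among them Slc30a6 and Slc30a9 at under 3 TPM in each of the 4 libraries. The higher count fell to 1 without mDKO mCherry replicate 1 and to 3 without mDKO mCherry replicate 2 or control mCherry replicate 1, and the lower count was 2 with size-factor scaling, GC centring, no filter or the 4 mCherry libraries alone. Mtf1, the zinc-sensing activator of metallothionein genes, and Slc39a7 did not pass (adjusted p = 0.0567 and 0.270).

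Housekeeping lists had members on both sides, and their counts stand beside 26.9% of all tested genes higher and 20.0% lower. After centring for GC content, 2449 of all 10960 tested genes were higher and 2915 lower. Of 81 tested cytosolic ribosomal protein genes 20 were higher and 10 lower, and after that centring 14 were higher and 16 lower. The higher count fell to 10 without mDKO mCherry replicate 1, and the lower count to 3 without either mDKO mCherry library and to 6 or 5 without control mCherry replicate 1 or 2. Rps2 stood at 242 and 220 TPM in mDKO mCherry against 43.9 and 38.2 TPM in control mCherry (2.47 ± 0.15, adjusted p = 1.19e-05) and Rpl13 at 51.1 and 47.4 TPM against 11.2 and 11.8 TPM, while Rps15a stood at 15.8 and 16.4 TPM against 55.4 and 51.5 TPM (-1.67 ± 0.12, adjusted p = 2.06e-05). Rpl26 and Rps27, each listed at 0 in 3 of the 4 libraries, did not pass. Ribosome biogenesis genes had 13 of 47 higher and 8 lower, with Imp3 at 89.6 and 79.7 TPM in mDKO mCherry against 10.4 and 10.17 TPM in control mCherry, Rrp1b and Noc4l among the higher, and Gar1 and Bysl not past the test. Without mDKO mCherry replicate 1 the higher count was 8, and the lower count was 5 without either mDKO mCherry library or control mCherry replicate 1. Proteasome genes had 12 of 32 higher and 5 lower, with Psmd5 at 51.5 and 46.3 TPM against 11.1 and 13.8 TPM (1.899 ± 0.13, adjusted p = 1.59e-05), followed by Psmd3 and Psmd8, and Psmd13 and Psmc2 did not pass. The lower count was 2 without either mDKO mCherry library or control mCherry replicate 2, but 8 with size-factor scaling and 9 with GC centring or the 4 mCherry libraries alone. Among genes of RNA polymerase II and the spliceosome, 10 of 48 were higher and 12 lower, with the Sm protein gene Snrpf at 595 and 602 TPM in mDKO mCherry against 221 and 148 TPM in control mCherry, Snrnp40 and Snrpa leading the higher members, and Prpf19 and Prpf8 not past the test. The lower count became 6 without mDKO mCherry replicate 1 and 4 without replicate 2, against 9 to 10 higher with any 1 library left out. The proteasome genes called lower were core-particle subunits. Psma2, for example, stood at 898 and 923 TPM in mDKO mCherry against 1413 and 1465 TPM in control mCherry. Of the higher genes named in these housekeeping lists, only Rps2 was also called higher in uninjected embryos. Imp3 stood at 98.6 and 89.4 TPM in uninjected mDKO against 137 and 107.9 TPM in uninjected control. Psmd8 stood at 75.3 and 73.8 TPM against 93.8 and 83.3 TPM in the same groups.

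Counts in the stress lists stand beside 26.9% of all tested genes higher and 20.0% lower. Heat shock and unfolded protein response genes had 11 of 21 higher and 5 lower with a median of 0.40. With 1 library left out these became 5 to 8 higher and 2 to 3 lower, and at least 1 of the counts moved by over 1.5 times whichever of the 4 libraries it was. The endoplasmic reticulum disulphide isomerase genes led: Pdia4 stood at 32.99 and 31.8 TPM in mDKO mCherry against 8.73 and 8.41 TPM in control mCherry (1.80 ± 0.19, adjusted p = 0.000153) and Pdia6 at 18.5 and 16.5 TPM against 6.95 and 5.57 TPM. Xbp1, a transcription factor of the same response, stood at 3.34 and 2.93 TPM in mDKO mCherry against 0.199 and 0.234 TPM in control mCherry, having passed the filter only through mDKO mCherry. Hspb1 and Dnajb9 did not pass (adjusted p = 0.0595 and 0.0984). Of 14 p53 targets 4 were higher and 4 lower, with the E3 ligase gene Mdm2 at 70.5 and 69.9 TPM in mDKO mCherry against 26.8 and 29.7 TPM in control mCherry, Btg2 at 1.70 and 2.03 TPM against 9.39 and 7.02 TPM and the nuclease gene Aen at 1.43 and 2.16 TPM against 6.49 and 7.14 TPM. Sesn1 and Gdf15 did not pass. The lower count was 2 whichever of the 4 libraries was left out, and the higher count 2 without mDKO mCherry replicate 1. Of 6 interferon-response genes 2 were lower, Cxcl10 and Ifitm3, the call of Ifitm3 resting on control mCherry replicate 2 and both mDKO mCherry libraries, and none were higher, with Ddx58 and Bst2 not past the test. Of 9 pluripotency and lineage factors Klf2 was higher, Dppa5a and Klf4 were lower, and the other 6, Gata4 and Tfcp2l1 among them, did not pass. Klf2, which passed the filter only through mDKO mCherry, was not called without control mCherry replicate 1 or either mDKO mCherry library, and Klf4 was not called without control mCherry replicate 2 or either mDKO mCherry library.

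**Figure D3:**
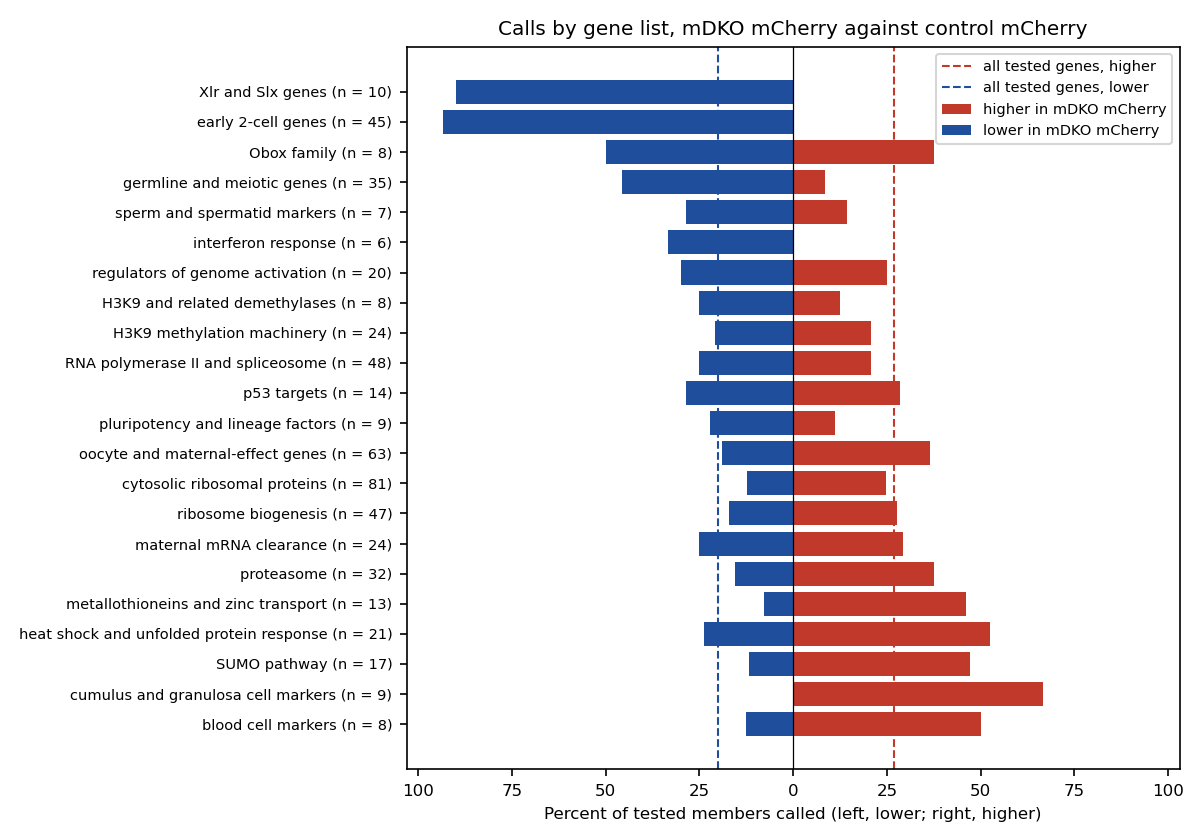
Bars give the percentage of each list's tested members called lower (left) or higher (right) in mDKO mCherry than in control mCherry, with dashed lines at the shares of all tested genes, 20.0% lower and 26.9% higher. The Xlr and early 2-cell lists, with 9 of 10 and 42 of 45 members lower, stand far past the dashed line.

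The 12 highest genes differed in their profile over the other libraries. Cd52, a glycoprotein gene of lymphocytes and the male genital tract, had the largest fitted rise, with 432 and 288 TPM in the mDKO mCherry libraries and 0 in both control mCherry libraries (adjusted p = 1.08e-05). Its uninjected values were 0 and 264.5 TPM in mDKO and 75.4 and 4.74 TPM in control, so single libraries of both uninjected genotypes carried it too. Hsd3b1, a steroid-synthesis enzyme of the ovary, stood at 80.0 and 79.5 TPM in mDKO mCherry against 0 in both control mCherry libraries (adjusted p = 1.08e-05), and at 12.5 and 22.9 TPM in uninjected mDKO against 0.227 and 0 TPM in uninjected control. It was thus higher in mDKO with and without injection. Spp1, the secreted protein osteopontin, stood at 320.4 and 267.6 TPM in mDKO mCherry against 9.68 and 8.21 TPM in control mCherry (4.89 ± 0.22, adjusted p = 4.15e-06), and lay between 5.19 and 29.4 TPM in the other 8 E2C libraries.

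Lgals1 (galectin-1), Ifitm2, Apoe and Clu, like Spp1, were called with mCherry and not in uninjected embryos (adjusted p = 0.306, 0.640, 0.393, 0.851 and, for Spp1, 0.312). Lgals1 stood at 96.0 and 92.4 TPM in mDKO mCherry against 0.919 and 0.813 TPM in control mCherry (5.67 ± 0.31, adjusted p = 8.29e-06), Ifitm2 at 49.9 and 46.7 TPM against 1.31 and 0 TPM, and Clu (clusterin) at 43.1 and 32.1 TPM against 0.501 and 0.295 TPM. Ifitm2 and Clu passed the filter only through mDKO mCherry, so their direction was set by it. Apoe (apolipoprotein E) stood at 31.5 and 24.6 TPM in mDKO mCherry against 0 in both control mCherry libraries. S100a6, a calcium-binding protein gene, stood at 51.8 and 36.3 TPM in mDKO mCherry against 0 and 0.947 TPM in control mCherry, and was called higher in uninjected mDKO as well, at 9.42 and 22.2 TPM against 4.29 and 3.53 TPM in uninjected control (1.67 ± 0.36, adjusted p = 0.0203). In the 4 mDKO Kdm3aWT and Kdm3aHA libraries Lgals1 lay between 0.261 and 3.88 TPM, and Clu between 0 and 2.48 TPM. The mDKO mCherry libraries were thus apart from the other mDKO injected libraries for these genes, as well as from control mCherry.

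Markers of other cell types were measured beside these genes. Counts of cumulus, blood and sperm markers stand beside 26.9% of all tested genes higher and 20.0% lower. Of 25 cumulus and granulosa cell markers 9 were tested, of which 6 were higher and none lower in mDKO mCherry, and 3 were higher without mDKO mCherry replicate 1. Inhba and Inha passed the filter only through mDKO mCherry and could be called in 1 direction only. The summed level of all 25 markers was 471 to 479 TPM in mDKO mCherry against 106 to 111 TPM in control mCherry. Without injection it was 255 to 291 TPM in mDKO against 145 to 151 TPM in control. Much of the sum was Serpine2, a protease inhibitor gene at 312 and 307 TPM in mDKO mCherry against 62.2 and 51.2 TPM in control mCherry. Serpine2 and the marker Bmpr1b were also high in MII oocytes of both genotypes, at 820 to 882 TPM and 245 to 302 TPM. The other higher markers were present in the MII libraries of both genotypes too. Inha was at 16.2 to 79.2 TPM there, Hsd3b1 at 5.36 to 45.1 TPM, Tnfaip6 at 6.73 to 29.0 TPM and Inhba at 2.07 to 7.90 TPM. The inhibin subunit genes Inhba, at 6.32 and 7.56 TPM, and Inha, at 7.31 and 5.31 TPM in mDKO mCherry, were at 0 in both control mCherry libraries. Tnfaip6 and Bmpr1b completed the higher markers, and Cyp11a1 and Fshr did not pass. The defining markers Foxl2, Lhcgr, Amh, Ptx3, Pgr and Areg were at 0 in all 4 mCherry libraries.

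Of 21 blood cell markers 8 were tested, of which 4 were higher and 1 lower, and 2 were higher without either mDKO mCherry library. Fcer1g, Tyrobp and Lyz2 passed the filter only through mDKO mCherry, so their direction was set by it. The myeloid genes Lyz2, at 30.6 and 17.97 TPM in mDKO mCherry against 0.794 and 1.69 TPM in control mCherry, and Cd68, at 33.3 and 23.9 TPM against 2.94 and 3.97 TPM, were higher. Fcer1g stood at 10.7 and 11.2 TPM and Tyrobp at 14.0 and 8.25 TPM in mDKO mCherry, and both, which encode adaptors of immune receptors, were at 0 in both control mCherry libraries. The haemoglobin gene Hba-a1 was lower, at 0.819 and 0 TPM against 6.72 and 2.34 TPM, a call lost without control mCherry replicate 1 or mDKO mCherry replicate 2, while Cd74 and Laptm5 did not pass. Summed blood markers reached 64.4 to 94.3 TPM in mDKO mCherry, 11.9 to 16.0 TPM in control mCherry and at most 28.3 TPM in the other 8 E2C libraries. The red cell markers Hbb-bs and Hbb-bt and the neutrophil gene S100a9 were at 0 in all 4 mCherry libraries. The part of RNA from other cells in the higher genes was not tested.

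Of 19 sperm and spermatid markers 7 were tested, of which 1 was higher and 2 lower. The protamine gene Prm2 was lower at 2.82 and 6.93 TPM in mDKO mCherry against 31.4 and 43.2 TPM in control mCherry (-2.78 ± 0.38, adjusted p = 0.000580), and Spam1 was lower at 23.4 and 24.9 TPM against 41.1 and 36.3 TPM. Prm1 was listed at 1.56 and 1.45 TPM in mDKO mCherry and at 0 in both control mCherry libraries, and passed the filter only through mDKO mCherry. Acrv1 and Odf1 did not pass, and the mature sperm markers Tnp1, Acr and Catsper1 were at 0 in all 4 libraries.

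Other higher genes had another profile across libraries, with control mCherry at the low end. Scand1, which encodes a SCAN-domain protein, stood at 43.5 and 46.8 TPM in mDKO mCherry and at 0 in both control mCherry libraries, while uninjected embryos held 98.2 and 89.2 TPM in mDKO and 71.4 and 80.1 TPM in control. Taf10, a subunit of TFIID and SAGA, stood at 319 and 331 TPM in mDKO mCherry against 20.1 and 17.6 TPM in control mCherry (4.04 ± 0.39, adjusted p = 9.60e-05), and at 548 and 468 TPM in uninjected mDKO against 432 and 444 TPM in uninjected control. Med30, a Mediator subunit, stood at 1837 and 1878 TPM in mDKO mCherry against 143 and 171 TPM in control mCherry. Uninjected embryos had 1660 and 1483 TPM in mDKO against 1397 and 1421 TPM in uninjected control. The histone chaperone gene Asf1a and the corepressor gene Sap30 had the same profile, Sap30 with 1265 and 1248 TPM in mDKO mCherry against 123 and 117 TPM in control mCherry. The mDKO Kdm3aHA libraries were low for some of them too, with Taf10 at 24.1 and 46.4 TPM and Scand1 at 5.24 and 17.3 TPM, while mDKO Kdm3aWT libraries had 458 and 188 TPM of Taf10. Low values were thus not limited to the control genotype.

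Arid5b, Bola3 and Chchd10 complete the 12 highest genes. Arid5b, a DNA-binding partner of a histone demethylase, stood at 73.0 and 87.8 TPM in mDKO mCherry against 0.960 and 1.60 TPM in control mCherry. Without injection it had 119 and 140 TPM in mDKO against 50.4 and 62.3 TPM in uninjected control. Bola3, an iron-sulphur cluster factor of mitochondria, stood at 66.0 and 55.8 TPM in mDKO mCherry against 3.89 and 0.512 TPM in control mCherry. It lay between 25.6 and 59.7 TPM in the mDKO Kdm3aWT and Kdm3aHA libraries. Without injection it was higher in mDKO too, at 73.7 and 70.8 TPM against 35.6 and 40.5 TPM (limma adjusted p = 0.00904). Chchd10, a mitochondrial protein gene, stood at 48.2 and 38.6 TPM in mDKO mCherry against 0.183 and 0 TPM in control mCherry. In the mDKO Kdm3aWT and Kdm3aHA libraries it lay between 0 and 3.26 TPM. Uninjected embryos held 10.7 and 20.3 TPM in mDKO against 17.7 and 14.3 TPM in control, and it was not called there.

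Over all 1531 genes higher by 2-fold, both control mCherry libraries lay below each of the other 10 E2C libraries for 943 (61.6%), and both mDKO mCherry libraries lay above each of the other 10 for 486 (31.7%). The uninjected control mean was nearer to mDKO mCherry than to control mCherry for 954 (62.3%). Over the 602 genes lower by 2-fold, the uninjected control mean was nearer to mDKO mCherry for 86 (14.3%), both control mCherry libraries lay above each of the other 10 for 212 (35.2%), and both mDKO mCherry libraries lay below each of the other 10 for 81 (13.5%). Median log2(TPM + 1) over the lower genes was 1.96 in mDKO mCherry and 3.44 in control mCherry, and 2.35 in uninjected mDKO and 3.54 in uninjected control. Over the higher genes it was 4.03 in mDKO mCherry and 2.19 in control mCherry, and 3.76 in uninjected mDKO and 3.44 in uninjected control. Levels from the injected and uninjected tables are TPM of separately made libraries. For each mCherry group, the other 10 libraries include those of the opposite mCherry group, which the call had already set apart. These counts cover called genes only, with no share over all tested genes beside them.

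The higher calls also followed the base composition of the transcripts. Over 10 equal bins of GC content, the median log2 difference between mDKO mCherry and control mCherry went from -0.12 in the lowest bin to 0.47 in the highest, and the share of genes higher by 2-fold from 7.12% to 30.0%, while the share lower by 2-fold went from 6.17% to 2.75%. Control mCherry minus uninjected control ran from 0.15 to -0.62 over the same bins, and mDKO mCherry minus uninjected mDKO from 0.01 to -0.19. Subtracting the median of GC-matched genes from each library shifted the median of all fold changes by -0.12 and gave 2449 higher and 2915 lower calls, 45.7% higher against 57.3% before. Of the 602 genes lower by 2-fold 596 remained so, and of the 1531 higher genes 1183 did. The part of GC content in single genes was not tested.

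**Figure D4:**
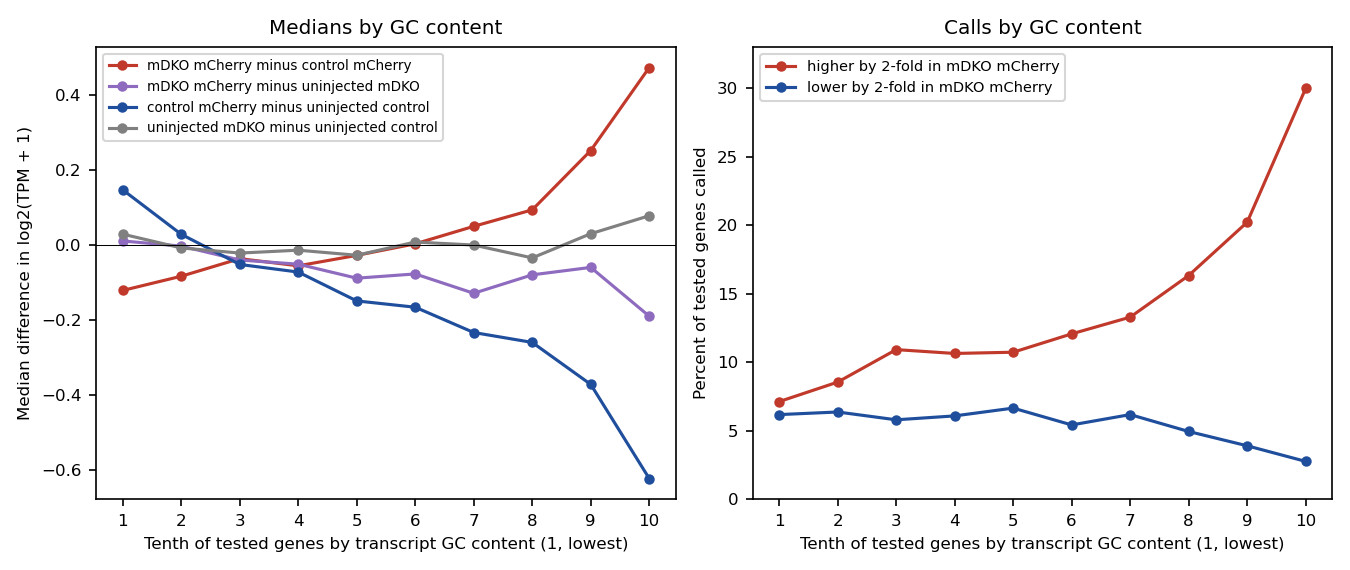
Left, median difference in log2(TPM + 1) in 10 equal bins of tested genes by transcript GC content for 4 pairs of groups; right, the percentage of genes called higher or lower by 2-fold in mDKO mCherry than in control mCherry. The share of higher genes climbs to 30.0% in the highest bin, and control mCherry minus uninjected control falls to -0.62 there.

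The same genotype contrast in uninjected E2C embryos, which shares no library with the mCherry groups, called 599 of 11140 genes higher (5.38%) and 1001 lower (8.99%). Of 10424 genes tested in both, 594 were lower in both, which is 27.8% of the 2139 lower genes with mCherry and 64.3% of the 924 lower genes without injection. Higher in both were 384, 14.1% of 2730 with mCherry and 66.1% of 581 without. Calls in opposite directions numbered 64 among genes higher with mCherry and 11 among genes lower with mCherry. With calls by 2-fold, 297 genes were lower in both (of 583 with mCherry and 594 without) and 132 higher in both (9.64% of 1370 and 51.6% of 256). Across the 10424 genes the fold changes correlated at r = 0.483 (Spearman's rho = 0.443), a description over genes that are not independent. The shared counts moved with single uninjected libraries, falling without either uninjected control library and rising without either uninjected mDKO library.

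**Figure D5:**
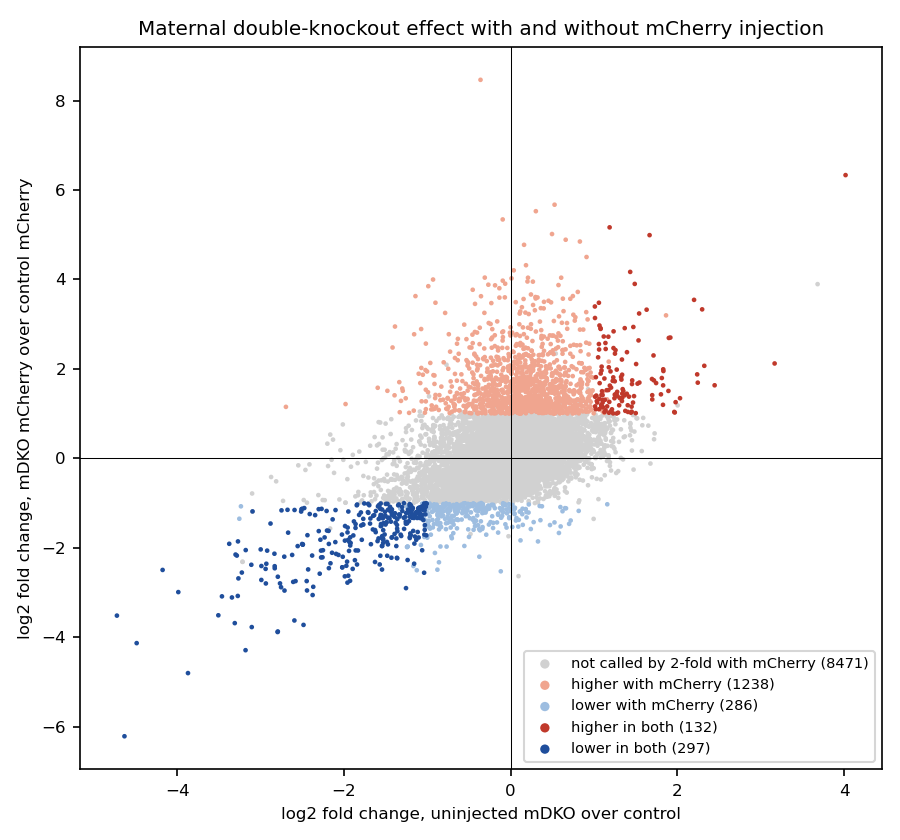
Each point is 1 of 10424 genes, with the log2 fold change of uninjected mDKO over control on the horizontal axis and of mDKO mCherry over control mCherry on the vertical axis; dark blue and dark red mark genes called by 2-fold in the same direction in both. The 297 shared lower genes run down the lower left, against 132 shared higher genes at the upper right.

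Tested as a difference between the 2 genotype contrasts, 1571 of 11723 genes had a more positive mDKO effect with mCherry (13.4%) and 532 a more negative one (4.54%). Of the 1531 genes higher by 2-fold with mCherry, 1051 (68.6%) were in the more positive set. Of the 602 lower genes 102 (16.9%) were in the more negative one. Both tests use the same mCherry libraries, so genes picked for a large change with mCherry are drawn towards these sets. The shares describe that overlap only. Of the early 2-cell genes 5 passed this test, Usp17la and Usp17lb with a more positive value with mCherry (0.96 and 0.73 on the log2 scale) and Tcstv1, Sp110 and Gm4340 with a more negative one (-0.52, -1.03 and -1.81), Gm4340 being listed at 0 without injection. Zscan4a and Zscan4f did not pass, at -0.38 and 0.38 (adjusted p = 0.486 and 0.482). The 5 genes with the smallest adjusted p in this test were Scand1, Sap30, Taf10, Med30 and Asf1a, with differences of 3.13 to 5.22 and adjusted p of 2.68e-06 to 3.26e-06. The injected and uninjected values come from separate tables, so the difference between contrasts holds injection and library preparation together, and these cannot be told apart.

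On the chromosomes, genes lower by 2-fold made up 10.5% of tested genes on X (41 of 391) and 8.60% on chromosome 7 (66 of 767), against 2.71% to 7.06% on the other autosomes and 5.39% of all 10394 genes placed. Runs of at least 4 neighbouring tested genes that were all lower by 2-fold numbered 7. They held Zscan4a, Zscan4b, Zscan4c, Zscan4d and Zscan4f (chr7:10794241-11402318), Xlr3a, Xlr5a, Xlr5b and Xlr3b (chrX:73086293-73202930), 6 genes from Gm4027 to Gm2022 that include BB287469 (chr12:87617797-87896722) and 6 from Gm4301 to Gm4312 (chr10:100335676-100382560). The others were Gm20767, AF067061, BC147527 and Tcstv3 (chr13:120140246-120318261), 4 genes around Pramel4 (chr4:143535954-144110101) and the run of Csf1, Eps8l3, 4933431E20Rik and Gstm5 (chr3:107741048-107898685). Most of these lower runs are tandem families of near copies, whose reads the counting shares among members. Runs of neighbours all higher by 2-fold outnumbered them, such as 6 genes from Alyref to Aspscr1 (chr11:120594504-120709447). Of all placed genes, however, 13.9% were higher by 2-fold against 5.39% lower. Whether either kind of run exceeded what these shares give was not tested.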

How the data were processed

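Polyadenylated RNA of oocytes and of pooled embryos was sequenced. The authors deposited TPM (transcript abundance scaled to a fixed total) per gene and library. Tools named in the submitters' processing notes are STAR 2.7.10b, Bowtie2 2.3.4.1, RSEM 1.3.1 and SAMtools 1.9 with build mm10; the sources used here do not give step order, annotation or strand setting. Per the labels' protocols, E2C libraries used the Takara SMART-Seq v4 kit or its successor, and MII libraries TruSeq Stranded mRNA; which E2C library had which kit is not given. TPM sums to a fixed total, so depth is unknown, no counting interval is given, and a rise of 1 abundant gene pulls the rest down.

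Genes with TPM of at least 1 in 2 or more libraries of the fit were tested on log2(TPM + 1) with limma 3.58.1 (R 4.3.3; trended empirical Bayes, two-sided, Benjamini-Hochberg over all tested genes, threshold 0.05). This scale understates changes of low genes. The mCherry fit held all 8 injected E2C libraries in 4 groups, the uninjected fit 4 libraries, and the difference of contrasts 8. The fit was tested on simulated data first. With 2 libraries per group an exact permutation test cannot go below p = 0.333. Nothing in the labels says that pools came from separate matings, so p-values may measure technical spread. Columns of unmatched samples left out numbered 0.

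The members and gene lists were chosen with earlier results of these data known. Named genes are the targeted genes and Jmjd1c; the 12 highest and 12 lowest called genes with a mean of at least 5 TPM in the higher group, leaving out predicted, clone and small-RNA names; in each of 23 lists, up to 3 called and 2 uncalled members with the largest changes; called somatic markers; and 5 genes of the contrast difference. Others, such as Usp17lb, were named after their values were seen. The mitochondrial list had 0 genes listed in the tables. GC content came from GENCODE M21 transcripts (10539 genes), positions and promoters from RefSeq on GRCm38.p6 by symbol, the first promoter per gene. Alternatives were another pseudocount, no filter, size-factor scaling, a replicate block, single libraries left out, a fit of the 4 mCherry libraries and, chosen after seeing the data, GC centring.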

Additional observations from a re-analysis of the deposited data

Results flagged for a closer look

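The effect of genotype differed between injected and uninjected embryos by the test of the difference itself for 1571 genes with a more positive and 532 with a more negative effect with mCherry. Each value in parentheses is the mDKO over control log2 fold change with mCherry minus that without injection, and each passed a limma adjusted p under 0.05. Among the genes with the largest rises the differences were those of Scand1 (5.22), Chchd10 (5.44), Lgals1 (5.15), Clu (4.61), Ifitm2 (4.52), Spp1 (4.23), Apoe (4.02), Arid5b (3.98), Bola3 (3.59), S100a6 (3.32) and Hsd3b1 (2.32). Listed markers of other cell types, also higher with mCherry, were Lyz2 (4.38), Fcer1g (3.71), Tyrobp (2.99) and Cd68 (1.61). So were Inhba (2.94), Inha (2.60), Prm1 (1.32) and Serpine2 (1.37), the last at 820 TPM or more in MII oocytes. Inha was at 16.2 TPM or more and Inhba at 2.07 TPM or more in the MII libraries. Nuclear factors were Taf10 (3.83), Med30 (3.41), Sap30 (3.24) and Asf1a (3.13). Other named genes with a more positive effect were Imp3 (3.29), Xbp1 (2.65), Khdc3 (2.13), Hspb1 (2.13), Rpl13 (2.02), Xlr (1.97), Psmd5 (1.76), Psmd8 (1.75), Snrpf (1.71), Psmd13 (1.52), Psmd3 (1.47), Dnajb9 (1.47), Zar1 (1.46), Snrpa (1.45), Snrnp40 (1.36), Sumo3 (1.31), Gabpa (1.29), Cnot11 (1.27), Rps2 (1.23), Pdia6 (1.10), Noc4l (1.07), Hsf1 (1.04), Pias4 (0.95), Nelfa (0.92) and Ythdf2 (0.76). A more negative effect was found for Rps15a (-2.25), Aen (-1.97), Cxcr3 (-1.24), Xlr5b (-1.09), Esp24 (-1.03), Cnot6l (-0.89), Phf8 (-0.77) and Sycp3 (-0.70). The 2 contrasts come from separate tables, so injection, batch and kit cannot be told apart in these differences.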

How the results depend on the processing

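The 5141 calls with mCherry stayed within 1.5 times that number with a pseudocount of 0.1, without the filter, with size-factor scaling, with GC centring and with the 4 mCherry libraries alone, and ranged from 3117 to 4026 with 1 library left out. The replicate block gave 5124 calls with mCherry, but 2560 without injection, against 1600, and 613 shared higher calls, against 384. The labels do not say that a number marks a shared batch, and deviations of same-numbered libraries correlated at -0.10 to 0.05. The 1600 uninjected calls became 409 without the filter and ranged from 282 to 3214 with 1 library left out. Shared higher calls became 89 and shared lower calls 202 without the filter, 132 and 297 with calls by 2-fold, and ranged from 67 to 755 and from 151 to 815 with 1 library left out. The 2103 genes that differed between contrasts ranged from 1069 to 2731 with 1 library left out. The cause of these shifts was not tested. Of 134 named genes tested, 92 were called; none reversed under any of these alternatives, up to 13 were no longer called when a library was left out (6 past the threshold no more and 7 no longer tested, without mDKO mCherry replicate 1), and Klf2 or Hba-a1 lost theirs under GC centring, without the filter or with a pseudocount of 0.1. With 2 libraries per group and unknown depth, low values such as those under 3 TPM carry the least weight.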
